A study of Arabidopsis thaliana with 8 samples.

Results

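The 22 genes described here could each be named as the single gene of a probe. Their transcripts stood at 0.5 or less of their normal CO2 level after Arabidopsis thaliana plants had spent 1 d in CO2-rich air. High and normal CO2 arrays did not overlap for any of them, and some genes that met these conditions were set aside by name. The study compared wild-type plants of the ecotype Columbia 0 that had finally spent 1 d at 1% CO2 by volume (high CO2, 4 arrays) with plants of the same ecotype at normal CO2, titled 0 d (4 arrays). Total RNA of both groups was hybridised to gene expression arrays with 3439 probes. No array used here is labelled as plants kept in normal air for that day, so the CO2 level, the added day and the transfer cannot be told apart. The labels give neither the tissue nor the plants' age, nor do they say whether the replicates were separate plants, so their spread may be technical.

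Members were chosen from their values. Of the 692 probes annotated to exactly 1 gene, 574 were above 0 on all 8 arrays. Each array was divided by its median, so that every level below is a multiple of the array median on a linear scale. A gene was kept where its highest high CO2 array lay below its lowest normal CO2 array and the ratio of the group means, high over normal, was 0.5 or less. This held for 28 of the 574 (4.88%), where 16.7% met the condition of no overlap in that direction and 6.79% that on the ratio. Of the 10 genes set aside by name for the rule, 6 were among these 28, which left 22. The same condition was met by 161 of the 2358 probes with several gene names or none (6.83%), and its mirror image, a ratio of 2 or more without overlap, by 64 of the 574 (11.1%). Since both the direction and the separation of the groups were conditions of the choice, the ratios are given as descriptions without a test.

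Air rich in CO2 raises the ratio of CO2 to oxygen at Rubisco, so that more carbon is fixed and less enters photorespiration, and leaves typically build up more sugar and starch. Most chloroplast proteins are encoded in the nucleus, and their transcript levels are known to move with light, sugar and the redox state of the plastid. The gene table used here gives a symbol other than the locus to 3 of the 22 members, GH9B11, SECE1 and DI21, so the roles stated for the others are general knowledge of the locus and no product of these data.

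The array medians lay between 0.212 and 0.28 on a deposited scale that ends at 100, and 133 to 219 probes per array were listed at 0. Within a group, replicates 1 and 2, and replicates 3 and 4, were more alike (correlations of 0.893 to 0.97 across probes on the log2 scale) than arrays of different pairs (0.855 to 0.902), and the labels do not say what the pairs are. Each ratio is therefore also given within the pairs. Of 8 leaf mesophyll markers, 5 were on single-gene probes (LHB1B2, PSBW, PSAN, PRK and SBPASE), and their summed level was 159 to 230 at high CO2 and 113 to 168 at normal CO2. PSBW, a small subunit of photosystem II, made up most of this sum, at 174 ± 27.4 at high CO2 and 102 ± 31.4 at normal CO2 (SD, n = 4 each). The other 4 summed to 19.4 to 28.5 at high CO2 and 36.8 to 39.8 at normal CO2, and 1 of them, PSAN, is a gene set aside by name. In multiples of the array median PSAN differed most, with means of 7.65 at high CO2 and 18.3 at normal CO2. The means at high and normal CO2 were 8.81 and 9.49 for LHB1B2, 5.99 and 7.58 for PRK and 1.59 and 2.82 for SBPASE. None of the 5 was at 0 on any array, and the part of these markers in the members' ratios was not tested. None of the 7 markers of guard cells, roots or pollen was on such a probe. Fewer cells of a type and less RNA per cell cannot be told apart in such whole extracts.

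Across the 22 members the median ratio was 0.434, with a range of 0.138 to 0.496, against a median of 0.943 over the 574 probes. The lowest normal array exceeded the highest high CO2 array by a factor of 1.01 (AT2G13690) to 3.13 (AT2G41120), with a median of 1.32. For 6 members, AT2G41120, AT2G32040, AT2G48090, GH9B11, AT4G23110 and AT1G01080, every high CO2 array was below the array median and every normal CO2 array above it.

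**Figure D1:**
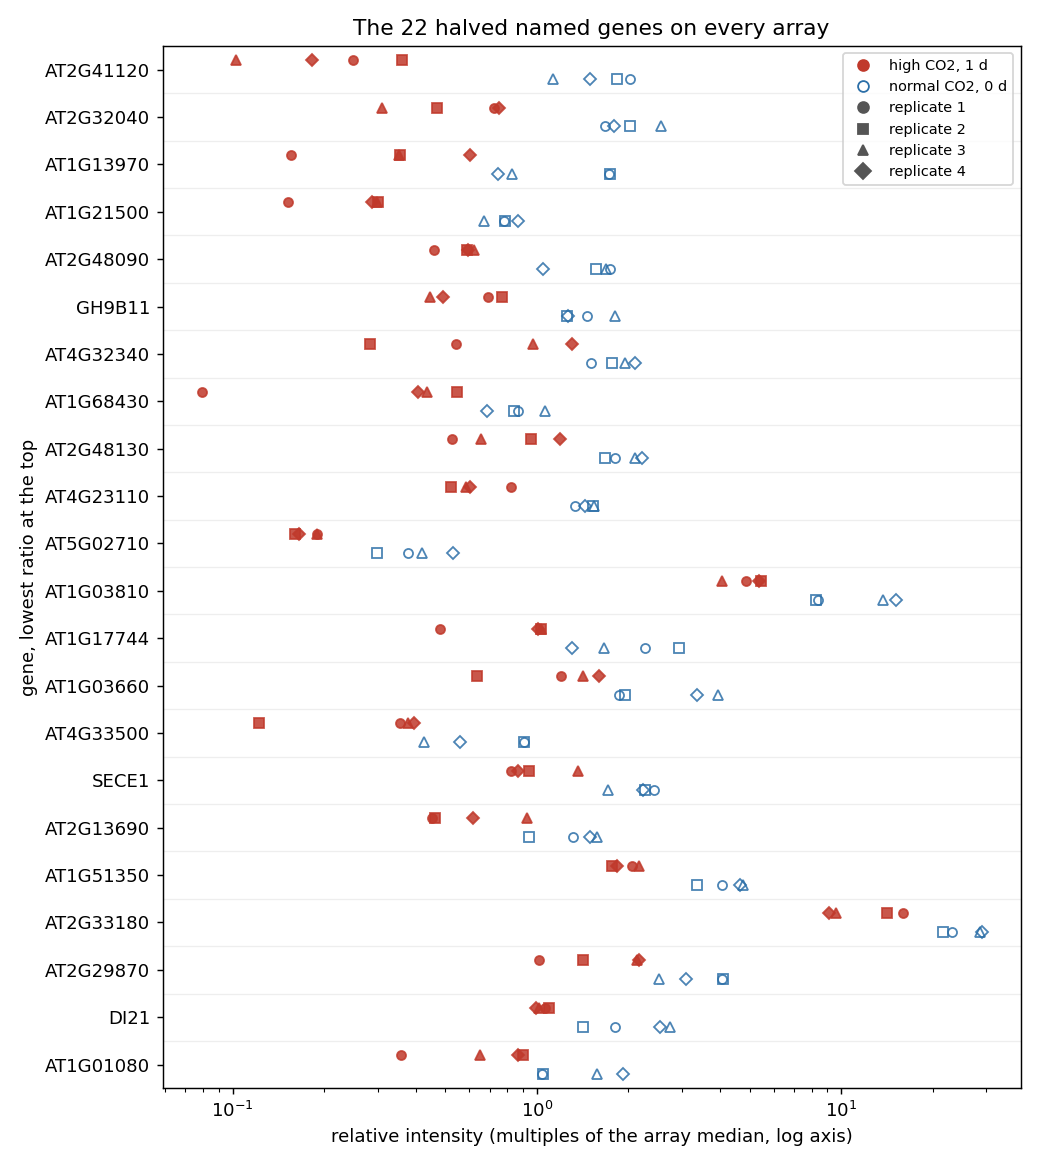
Relative intensity of each member on every array, in multiples of the array median on a log axis, with genes ordered by ratio from the lowest at the top; filled red symbols are high CO2 arrays, open blue symbols normal CO2 arrays, and the symbol shape gives the replicate. By the rule no red symbol lies right of a blue one of the same gene, and the space between them is widest for AT2G41120 (0.361 against 1.13) and narrowest for AT2G13690 (0.928 against 0.941).

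The lowest ratio belonged to AT2G41120, a protein with a domain of unknown function. Its level was 0.248, 0.361, 0.103 and 0.182 on high CO2 replicates 1 to 4, against 2.02, 1.83, 1.13 and 1.5 on normal CO2 replicates 1 to 4. All 4 high CO2 values lay under the lower quartile of their array, and the groups were farther apart than for any other member. The means were 0.224 ± 0.109 at high CO2 and 1.62 ± 0.388 at normal CO2 (SD, n = 4 each), a ratio of 0.138, and both pairs of replicates showed it, with 0.159 in replicates 1 and 2 and 0.108 in replicates 3 and 4.

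AT2G32040 encodes a folate transporter of the chloroplast envelope, from a family of carriers for folates and pterins. Its level was 0.723, 0.47, 0.311 and 0.753 at high CO2, against 1.68, 2.02, 2.55 and 1.79 at normal CO2. The lowest normal array was 2.23 times the highest high CO2 array, and the order of the arrays within each group did not follow the pairs. The ratio of the means, 0.564 ± 0.211 over 2.01 ± 0.385 (SD, n = 4 each), was 0.281, with 0.323 in replicates 1 and 2 and 0.245 in replicates 3 and 4.

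A pair of genes without a described role followed, and they differed in how evenly the arrays showed the lower level. AT1G13970, which carries a domain of unknown function, had levels of 0.156, 0.355, 0.352 and 0.603 at high CO2, against 1.73, 1.74, 0.827 and 0.745 at normal CO2. The normal arrays fell into a high pair and a low pair, so the ratio was 0.147 in replicates 1 and 2 and 0.608 in replicates 3 and 4, while the ratio over all arrays was 0.291. AT1G21500 had levels of 0.152, 0.301, 0.299 and 0.288 at high CO2, against 0.777, 0.785, 0.669 and 0.869 at normal CO2. Here 3 of the 4 high CO2 arrays and all the normal arrays lay close together, and the ratio of 0.335 was seen in both pairs (0.29 and 0.381).

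AT2G48090, for which no role is stated, measured 0.459, 0.59, 0.621 and 0.596 at high CO2, against 1.74, 1.56, 1.69 and 1.05 at normal CO2. The high CO2 arrays varied by 12.8% of their mean, and normal replicate 4 was the lowest of its group. The ratio was 0.375, with 0.318 and 0.443 in the pairs.

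Genes of the cell wall and the plant surface were among the 10 lowest ratios. GH9B11, a glycosyl hydrolase of family GH9B, whose members include endoglucanases that cut glucan chains of the wall, measured 0.692, 0.768, 0.445 and 0.492 at high CO2, against 1.46, 1.26, 1.8 and 1.27 at normal CO2. High CO2 replicates 3 and 4 were lower than 1 and 2, which gave a ratio of 0.306 in that pair, 0.537 in the other and 0.415 over all arrays. AT2G48130, a lipid transfer protein of the GPI-anchored type that is thought to carry surface lipids through the wall, measured 0.526, 0.958, 0.653 and 1.19 at high CO2, against 1.8, 1.68, 2.1 and 2.22 at normal CO2. Its ratio was 0.428 over all arrays and the same in both pairs. On chromosome 2 its gene is separated from AT2G48090 by 4 protein-coding genes in the order of assembly TAIR10.1.

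The other members with the 10 lowest ratios were AT4G32340, a tetratricopeptide repeat protein, a fold that binds other proteins, and AT1G68430 and AT4G23110, for which no role is stated. AT4G32340 measured 0.543, 0.284, 0.973 and 1.3 at high CO2, against 1.51, 1.77, 1.95 and 2.1 at normal CO2. Its high CO2 arrays were the most spread of all members in relation to their mean (58.3%), and the ratio of 0.424 stood for 0.252 in replicates 1 and 2 and 0.562 in replicates 3 and 4. AT1G68430 measured 0.0793, 0.548, 0.437 and 0.407 at high CO2, against 0.869, 0.841, 1.06 and 0.687 at normal CO2. High CO2 replicate 1 was far below the other arrays, and without it the ratio was 0.536, against 0.425 with all arrays. The pairs gave 0.367 and 0.482.

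AT4G23110 was the most even of the 10 at normal CO2. It measured 0.823, 0.522, 0.584 and 0.603 at high CO2, against 1.33, 1.53, 1.54 and 1.44 at normal CO2. The normal arrays varied by 6.92% of their mean, the least of all members, and the ratio was 0.433, with 0.47 and 0.398 in the pairs.

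The remaining 12 members had ratios of 0.434 to 0.496 and are given by the function of their proteins. In the group of transport and membrane insertion, to which AT2G32040 also belongs, SECE1 is a subunit of the Sec translocase of the thylakoid, the channel through which proteins enter or cross that membrane. SECE1 measured 0.821, 0.939, 1.36 and 0.868 at high CO2, against 2.43, 2.26, 1.71 and 2.24 at normal CO2. Replicate 3 was the highest array at high CO2 and the lowest at normal CO2, so the groups came closest there, and the ratio was 0.461 over all arrays, 0.375 in replicates 1 and 2 and 0.563 in replicates 3 and 4. AT2G29870, an aquaporin-like protein, from the family of channels for water and small solutes, measured 1.02, 1.42, 2.14 and 2.16 at high CO2, against 4.07, 4.09, 2.51 and 3.1 at normal CO2. Both groups split by pair in opposite directions, and the ratio was 0.299 in replicates 1 and 2, 0.766 in replicates 3 and 4 and 0.49 over all.

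Of the proteins that bind nucleic acids, AT1G03810 is an OB-fold protein, a fold that holds single strands of DNA or RNA, and AT1G01080 is a chloroplast protein with RNA recognition motifs, from a family that stabilises and edits plastid transcripts. AT1G03810 measured 4.87, 5.46, 4.07 and 5.36 at high CO2, against 8.37, 8.29, 13.7 and 15.1 at normal CO2. The high CO2 arrays were close together and the normal arrays were higher in replicates 3 and 4, so that the ratio of 0.435 stood for 0.62 in replicates 1 and 2 and 0.328 in replicates 3 and 4. AT1G01080 measured 0.358, 0.898, 0.649 and 0.865 at high CO2, against 1.04, 1.05, 1.58 and 1.92 at normal CO2. Its ratio of 0.496 was the closest to the limit, with 0.602 and 0.433 in the pairs, and without high CO2 replicate 1 it was 0.576.

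Signalling and protein-binding repeats were represented, beside AT4G32340, by AT4G33500, a PP2C-type protein phosphatase, which removes phosphate from proteins, by AT2G13690, catalogued as similar to a protein that binds the regulator PRL1, and by AT1G51350, an armadillo repeat protein. AT4G33500 measured 0.355, 0.122, 0.377 and 0.394 at high CO2, against 0.909, 0.907, 0.426 and 0.559 at normal CO2. All its high CO2 values were under the lower quartile of their array, and the ratio was 0.445, with 0.263 in replicates 1 and 2 and 0.782 in replicates 3 and 4, the weakest value in a pair among the 22. AT2G13690 measured 0.451, 0.464, 0.928 and 0.619 at high CO2, against 1.31, 0.941, 1.58 and 1.5 at normal CO2, with high CO2 replicate 3 and normal replicate 2 almost level. Its ratio was 0.461, with 0.406 and 0.501 in the pairs.

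AT1G51350 measured 2.06, 1.77, 2.16 and 1.84 at high CO2, against 4.05, 3.35, 4.74 and 4.66 at normal CO2. Both groups were narrow, and its ratio of 0.466 was the highest among the 9 members whose groups stood apart by a factor of over 1.5. The pairs gave 0.517 and 0.426.

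The one member named for stress was DI21, drought-induced 21. It measured 1.06, 1.1, 1.02 and 0.995 at high CO2, against 1.8, 1.42, 2.73 and 2.54 at normal CO2. The high CO2 arrays varied by 4.58% of their mean, the least of all members, while the normal arrays differed between the pairs, and the ratio was 0.67 in replicates 1 and 2, 0.382 in replicates 3 and 4 and 0.491 over all.

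Of the 4 other members with no role stated, AT5G02710 measured 0.19, 0.16, 0.189 and 0.166 at high CO2, against 0.377, 0.299, 0.418 and 0.53 at normal CO2. It was dim throughout, with all high CO2 arrays and 2 normal arrays under their lower quartile, and its ratio was 0.434, with 0.518 and 0.374 in the pairs. AT1G17744 measured 0.479, 1.03, 1.03 and 1.01 at high CO2, against 2.26, 2.93, 1.66 and 1.3 at normal CO2, a ratio of 0.436, with 0.292 and 0.689 in the pairs. Here 3 high CO2 arrays were level and replicate 1 stood far lower.

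AT1G03660 measured 1.2, 0.634, 1.42 and 1.6 at high CO2, against 1.86, 1.95, 3.95 and 3.36 at normal CO2, a ratio of 0.437, with 0.482 and 0.414 in the pairs. It is the one member matched to the gene table by its locus alone, since the table gives it another gene identifier. AT2G33180 had a ratio of 0.478, with 0.671 and 0.326 in the pairs, from means of 12.2 ± 3.37 at high CO2 and 25.6 ± 3.71 at normal CO2 (SD, n = 4 each).

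**Figure D2:**
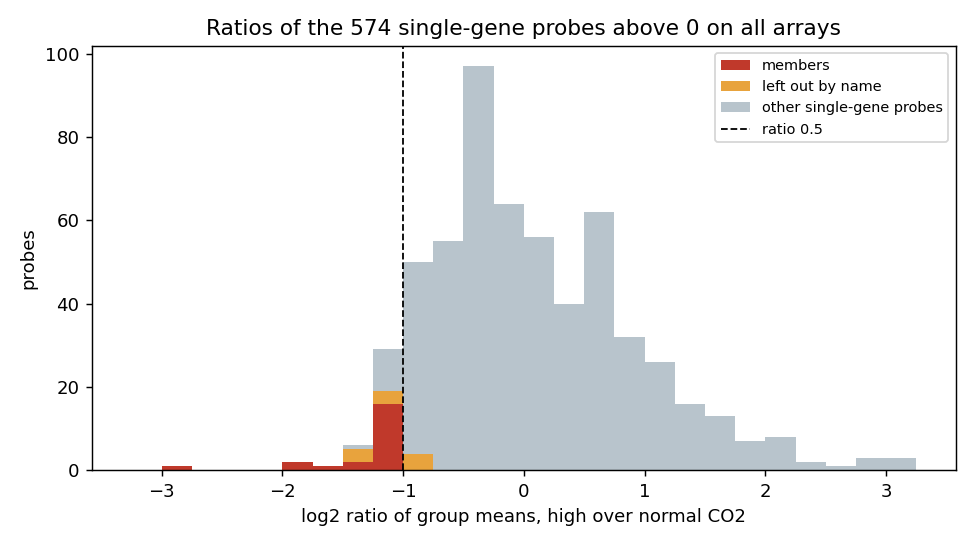
Number of single-gene probes above 0 on all arrays by log2 ratio of the group means, high over normal CO2, in steps of 0.25; red marks the members, orange the genes left out by name and grey the rest, and the dashed line is a ratio of 0.5. Most members sit just left of the line, and grey left of it are the 11 genes whose groups overlapped.

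The limit on the ratio cut through a continuous range. Just inside it were DI21 (0.491) and AT1G01080 (0.496), and just outside, among genes whose groups did not overlap, AT2G34050 (0.51), AT3G13180 (0.512) and GLR2.7 (0.517). With a limit of 0.4 the rule kept 5 genes and with 0.6 it kept 50. The condition of no overlap kept out 11 genes with a ratio of 0.5 or less, and for 9 of these a single high CO2 array reached the lowest normal array. The lowest ratios among the 11 were those of Z-ISO, an isomerase of carotenoid synthesis (0.415), AT4G26770 (0.425) and AT1G04420, an aldo-keto reductase (0.44).

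The members differed in which pair of replicates carried the lower level. All 22 ratios were below 1 in both pairs, which the choice of members fixes. A ratio of 0.5 or less was seen for 15 in replicates 1 and 2 and for 15 in replicates 3 and 4, where 12.0% and 9.58% of the 574 probes had one; the same arrays chose the members, so nothing is read from these counts. Both pairs reached 0.5 for 8 members, AT2G41120, AT2G32040, AT1G21500, AT2G48090, AT1G68430, AT2G48130, AT4G23110 and AT1G03660. The ratio was over 1.5 times lower in replicates 1 and 2 for 6 members, AT1G13970, AT4G32340, AT1G17744, AT4G33500, SECE1 and AT2G29870. It was over 1.5 times lower in replicates 3 and 4 for 4, GH9B11, AT1G03810, AT2G33180 and DI21. At high CO2 replicates 1 and 2 together lay below replicates 3 and 4 for 15 of the 22 members (68.2%), against 41.3% of the 574 probes. At normal CO2 they lay above for 8 members (36.4%), against 46.5%. The lowest high CO2 array was replicate 1 for 10 members, replicate 2 for 6, replicate 3 for 4 and replicate 4 for 2. Over the 574 probes it was replicate 1 for 23.9%, replicate 2 for 22.8%, replicate 3 for 31.5% and replicate 4 for 21.8%. The same arrays chose the members here too, so nothing is read from these contrasts with the 574 probes. The part of the pairs in the ratios was not tested.

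**Figure D3:**
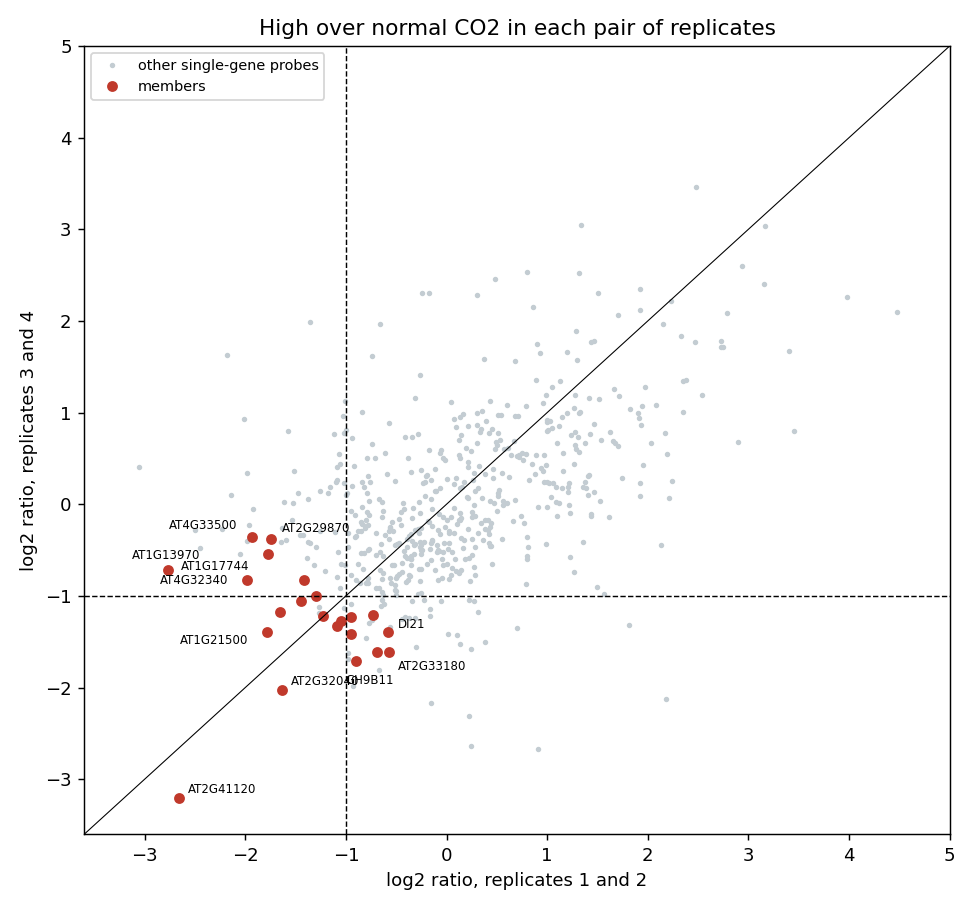
Log2 ratio of high over normal CO2 in replicates 1 and 2 (horizontal) and in replicates 3 and 4 (vertical) for the single-gene probes above 0 on all arrays, with members in red and the rest in grey; dashed lines mark a ratio of 0.5 and the solid line equal ratios. AT2G41120 and AT2G32040 lie low on both axes, AT1G13970 and AT4G33500 low on the horizontal axis alone, and DI21 and AT2G33180 low on the vertical axis alone.

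The loci of the members were unevenly spread over the chromosomes, as read from their names. Chromosomes 1 and 2 held 8 each, chromosome 4 held 5, chromosome 5 held 1 and chromosome 3 held 0. Of the 574 probes, 134, 112, 107, 111 and 109 stood for loci on chromosomes 1 to 5, in that order. This describes a short list, without the 6 genes set aside by name that met the rule, which the 574 include. After AT2G48090 and AT2G48130, the members next closest to each other were AT1G03660 and AT1G03810, with 14 protein-coding genes between them. With the probes in order of their number and parted into 4 equal blocks, the first held 9 members, the second 7, the third 2 and the fourth 4, or 5.62%, 4.9%, 1.39% and 3.15% of the single-gene probes there. Of all probes above 0 on every array, with the genes set aside by name still counted, 7.52%, 6.94%, 5.66% and 5.68% met the condition in these blocks.

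Beyond the members, limma's test over the 3154 probes with enough values called 577 lower (18.3%) and 452 higher (14.3%) at high CO2, at a Benjamini-Hochberg adjusted p under 0.05. With the values as deposited the split turned, with 387 lower and 499 higher, as it did with the pairs of arrays as a random block, with 207 lower and 235 higher. Among the 622 tested probes with 1 gene, 100 were called lower (16.1%) and 93 higher (15.0%). Of the 22 members 20 were called lower and AT1G68430 and AT4G33500 were not, which supports nothing, since the same arrays chose them. Of 19 function lists matched to the names in the gene table, 7 had a gene tested and 1, hydrolases and lipases, held a member. Descriptive names stand beside 61 of the 622 genes alone.

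In that list GH9B11 had 4 other genes tested, of which 1 fell, 1 rose and 2 did not pass, with a median log2 fold change of -0.68 against -0.18 over the 622 probes. The gene that fell was its relative GH9B16, which measured 0.202, 0, 0.303 and 0.309 at high CO2, against 1.45, 1.01, 0.87 and 0.834 at normal CO2. Its groups did not overlap, but the array listed at 0 kept it out of the rule, and the limma fit, which left out that array, gave a log2 fold change of -1.99 (adjusted p = 0.00216 by limma). The family's other genes were GH9B12, with a log2 fold change of -1.08 (adjusted p = 0.175 by limma), and GH9B8, with -0.29 (adjusted p = 0.487 by limma). The arrays of both overlapped between the groups. GH9B12 passed without high CO2 replicate 4 (-1.56, adjusted p = 0.0351 by limma) and in no other setting. Both lay below the array median on every array. The means of GH9B12 were 0.299 at high CO2 and 0.453 at normal CO2, and those of GH9B8 were 0.436 and 0.499. The gene that rose was FATB, a thioesterase that releases fatty acids in the plastid, at 1.18 (adjusted p = 0.00298 by limma). The calls of GH9B16 and FATB held under every limma setting in which they were tested; without high CO2 replicate 1, 3 or 4 too few values of GH9B16 were left.

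**Figure D4:**
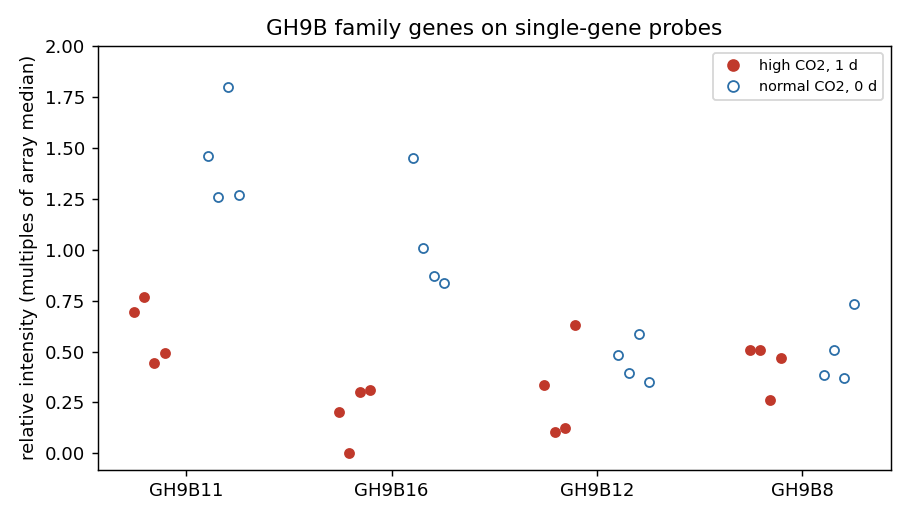
Relative intensity, in multiples of the array median on a linear axis, of the GH9B family genes with a single-gene probe, with filled red points for the 4 high CO2 arrays left of open blue points for the 4 normal CO2 arrays. The groups lie apart for GH9B11 and GH9B16 and overlap for GH9B12 and GH9B8.

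The other lists with at least 3 tested genes held no member, although CHLM met the rule and was set aside by name. Of 3 transferases, CHLM of chlorophyll synthesis fell (log2 fold change -1.07, adjusted p = 0.0102 by limma), UGT74D1, a glucosyltransferase, fell (-0.87, adjusted p = 0.028 by limma) and CSLA01 did not pass. Of the 3 photosystem and antenna genes that the names matched, PSBW rose (0.67, adjusted p = 0.0155 by limma) and PSBY (-0.38) and LHB1B2 did not pass. PSAN, a photosystem gene set aside by name, was not matched to this list. It measured 7.65 ± 2.23 at high CO2 and 18.3 ± 0.951 at normal CO2 (SD, n = 4 each). Neither of the named genes of the 5 oxidoreductases, GLDH (-0.55) and NdhS (0.46), nor of the 3 chaperones, Cpn60beta3 (0.72) and Cpn60beta4 (0.38), passed, and no other gene of these lists was called. With the pairs of arrays as a random block the calls of CHLM (adjusted p = 0.0536 by limma), UGT74D1 (adjusted p = 0.192) and PSBW (adjusted p = 0.0566) ended. UGT74D1 was also not called with the values as deposited or without normal replicate 2, 3 or 4 (adjusted p = 0.0552 to 0.0949 by limma), nor PSBW without normal replicate 1 or 2 (0.0582 and 0.0588). GLDH passed without high CO2 replicate 2 and without the dim probes (0.0277 and 0.046), Cpn60beta3 with the values as deposited (0.036) and PSBY without the dim probes (0.0468).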

How the data were processed

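The deposited values are relative intensities on a linear scale from 0 to 100 on each of the 8 arrays. What the authors did to make them (background treatment, normalization, labelling) was not given in the sources used here. The absolute scale is thus unknown, and the number of arrays limits the precision. Probe names came from GEO's annotation of the platform and were matched by gene identifier to assembly TAIR10.1 (690 of 692 single-gene probes matched, 870 probes had several genes and 1877 none). RPS6, RPL34 and FBN2 of the leave-outs were taken as AT1G64510, AT1G29070 and AT2G35490.

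Member values were divided by the array median. For the comparison over all probes, values at 0 were treated as missing, log2 values were quantile normalized, probes needed 3 values per group, and groups were fitted with limma 3.58.1 in R 4.3.3 (two-sided, Benjamini-Hochberg). Both computations were tested on simulated data, and the outcomes are not reported here. For limma the simulated arrays varied independently, without the likeness within pairs, so that test does not cover the effect of the pairs on the calls. The naming rule took the 10 lowest ratios and up to 3 genes of each function group with all arrays, and the 2 lowest p-values of each list with at least 3 other genes tested; genes outside the rule but near its limits, and further genes of the function lists, were named after their values were seen. The members and lists were chosen with earlier results of these data known. Figures used Python 3.11.15 and matplotlib 3.10.9.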

Additional observations from a re-analysis of the deposited data

Results flagged for a closer look

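In 5 of the 44 groups of 4 arrays behind the members (22 genes at high CO2 and at normal CO2), 1 array lay far from the other 3 on the log2 scale. Chance flags about 1 in 20, or 2.2, in groups not chosen by their values. These values chose the members, so that rate does not apply and nothing is read from the count. The flagged array's distance from the next array was 0.973 of the group's range for AT1G17744 at high CO2, where replicate 1 measured 0.479 against 1.01 to 1.03 on the others. It was 0.932 for AT1G21500 (0.152 against 0.288 to 0.301), 0.847 for AT1G68430 (0.0793 against 0.407 to 0.548) and 0.831 for AT2G48090 (0.459 against 0.59 to 0.621), all in high CO2 replicate 1. For AT4G33500 at high CO2 it was 0.912, in replicate 2 (0.122 against 0.355 to 0.394). Each of the 5 arrays lay on the low side of the high CO2 group. The rule favours this side, since it keeps every high CO2 array below the lowest normal array and asks for a low ratio. Without that array the ratio was above 0.5 for AT1G68430 (0.536), AT4G33500 (0.536) and AT1G17744 (0.503).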

How the results depend on the processing

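Under the alternatives, all 308 ratios of the 22 members stayed below 1, which the condition of no overlap fixes where arrays were left out or taken by pair and so is no sign of stability, and 256 stayed at 0.5 or less. The rule kept 22 genes. It kept 18 with the values as deposited (16 of the 22) and 26 with quantile normalization (all 22). It kept 5 at a limit of 0.4, 50 at 0.6 and 13 with a pseudocount of 0.228 array medians, which lost AT1G68430, AT4G23110, AT5G02710, AT4G33500, SECE1, AT2G13690, AT2G29870, DI21 and AT1G01080. With the pseudocount the ratios of the 22 members ran from 0.244 (AT2G41120) to 0.637 (AT5G02710). Replicates 1 and 2 alone gave 65 genes and replicates 3 and 4 alone 47, with 15 of the 22 each. Leaving out each array gave 21 to 36 genes, 36 without high CO2 replicate 4, and single ratios of 0.11 to 0.576. Fewer arrays make the condition of no overlap easier to meet, here and within the pairs, so nothing is read from the higher counts. Removing a running median along the probe numbers, chosen after seeing the data, gave 23 genes, 16 of them members.

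Of limma's calls, pairs of arrays as a random block left 207 lower and 235 higher. Leaving out each array gave 377 to 516 lower and 353 to 406 higher; the 577 lower calls became 377 without normal replicate 1. Arrays sharing a replicate number had deviations from their group means that correlated at 0.0385 to 0.133, with a single value over 0.1. Pairing by number was therefore not assumed; the replicate block gave 441 lower and 404 higher calls.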

Other observations

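Of the 22 members, 7 are also listed among the genes of a probe with several genes. Such a probe cannot be assigned to any of its genes, and 6 of these 7 were above 0 on all arrays. Their ratios of high over normal CO2 ran from 0.375 to 1.52, with 5 below 1, 1 of them at 0.5 or less, and 1 above 1. The probe above 1 was the one that lists AT4G32340 among 4 genes.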
